A study of Homo sapiens with 84 samples.

Results

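This account covers 10 genes of insulin and insulin-like growth factor (IGF) signalling in triple-negative breast cancer cell lines treated with an EZH2 inhibitor and an AKT inhibitor. The genes were the receptors INSR, IGF1R and IGF2R, the adaptors IRS1 and IRS2, the binding proteins IGFBP2, IGFBP3, IGFBP4 and IGFBP6, and the receptor-binding inhibitor GRB10. They were 10 of the 24455 genes with a peak within 10 kb of a transcription start site. For each gene the read counts of all peaks that the authors assigned to it within 10 kb of its start site were summed into a gene window, 76 peaks of the 861439 in all. A further look at single peaks used every peak assigned to the 10 genes at any distance, 654 in number.

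Open chromatin was mapped with Omni-ATAC-seq, which uses a transposase to insert sequencing adapters into accessible DNA. The established lines HCC1937, HCC1395, HCC1143, BT-549 and BT-20, and also SUM-159PT, SUM-149PT, MDA-MB-231 and MDA-MB-468, were each given tazemetostat (an inhibitor of EZH2, the methyltransferase of the Polycomb repressive complex) together with ipatasertib (an inhibitor of the kinase AKT), or DMSO, the vehicle. The last 4 lines were also given tazemetostat alone and ipatasertib alone, so that there were 26 groups of line and treatment with 3 libraries each. Both drugs were used at 5 uM and cells were collected 24 hours after the last treatment, in medium with 2% FBS. The schedule is written for MDA-MB-468, where tazemetostat began 5 days before ipatasertib, so the single agents differ in length of exposure.

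Insulin and the IGFs bind receptor tyrosine kinases, which phosphorylate the IRS adaptors, and these recruit PI3-kinase and so lead to activation of AKT. AKT in turn phosphorylates FOXO transcription factors and keeps them out of the nucleus, and in several cell types FOXO factors are known to raise transcription of INSR and IRS2 when AKT is blocked. The secreted binding proteins hold IGFs outside the cell and so limit or prolong their action.

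The promoters of the genes whose windows moved most, and that of IRS2, whose start-site peak the authors assigned to another gene, are shown because the results below turn on peaks over or near them. Each is the coding strand, read in the direction of transcription, 250 bases before to 50 after a start site, from RefSeq on GRCh38.p14. Capitals mark the GC box GGGCGG, or CCGCCC on the other strand, the core of Sp1 sites. Matches may overlap each other. The 5 stretches are INSR at chr19:7294365-7294664 (minus strand), IGF1R at chr15:98648289-98648588 (plus), IRS2 at chr13:109786534-109786833 (minus), IGFBP2 at chr2:216633170-216633469 (plus) and GRB10 at chr7:50793404-50793703 (minus).
INSR: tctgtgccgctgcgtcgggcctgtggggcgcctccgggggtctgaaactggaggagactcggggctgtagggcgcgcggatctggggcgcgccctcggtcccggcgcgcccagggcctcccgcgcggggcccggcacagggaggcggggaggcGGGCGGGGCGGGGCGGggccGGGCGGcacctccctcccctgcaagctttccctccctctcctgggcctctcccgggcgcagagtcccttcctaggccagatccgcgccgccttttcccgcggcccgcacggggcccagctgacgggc
IGF1R: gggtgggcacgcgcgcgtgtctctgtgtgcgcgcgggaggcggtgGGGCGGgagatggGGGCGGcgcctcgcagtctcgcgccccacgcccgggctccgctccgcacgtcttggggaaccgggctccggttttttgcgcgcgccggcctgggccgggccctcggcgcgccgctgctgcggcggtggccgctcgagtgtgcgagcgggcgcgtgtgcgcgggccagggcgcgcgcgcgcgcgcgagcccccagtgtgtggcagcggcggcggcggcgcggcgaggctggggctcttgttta
IRS2: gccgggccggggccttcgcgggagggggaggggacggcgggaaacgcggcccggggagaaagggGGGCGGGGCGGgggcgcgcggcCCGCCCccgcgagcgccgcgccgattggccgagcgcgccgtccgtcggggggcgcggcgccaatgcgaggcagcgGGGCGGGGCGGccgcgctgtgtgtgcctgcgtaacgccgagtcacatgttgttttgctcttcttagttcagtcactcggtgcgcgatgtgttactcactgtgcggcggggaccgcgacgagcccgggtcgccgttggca
IGFBP2: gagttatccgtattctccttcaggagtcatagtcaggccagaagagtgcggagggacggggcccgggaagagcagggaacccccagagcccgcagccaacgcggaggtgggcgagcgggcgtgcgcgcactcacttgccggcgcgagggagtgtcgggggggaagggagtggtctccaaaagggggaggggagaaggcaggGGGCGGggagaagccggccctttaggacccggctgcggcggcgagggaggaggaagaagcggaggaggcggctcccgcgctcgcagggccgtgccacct
GRB10: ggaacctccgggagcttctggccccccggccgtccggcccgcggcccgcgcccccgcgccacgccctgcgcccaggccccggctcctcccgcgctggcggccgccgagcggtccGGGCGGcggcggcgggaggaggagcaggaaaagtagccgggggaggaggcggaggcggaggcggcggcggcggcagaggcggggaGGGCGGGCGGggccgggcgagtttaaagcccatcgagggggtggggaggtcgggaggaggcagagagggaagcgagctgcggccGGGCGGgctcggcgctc

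Each of these stretches lay inside an ATAC-seq peak. They held 4 GC boxes in INSR, 2 in IGF1R, 5 in IRS2, 1 in IGFBP2 and 4 in GRB10. Over all 10 genes, 12 of 16 RefSeq promoters held at least 1 GC box, beside 45.0% of the 35116 promoters in the table. The FOXO sequence GTAAACA was found in 1 of the 16, that of IGFBP6, beside 3.42% of all promoters. The AP-1 sequence TGANTCA was found in 0 of the 16, beside 7.71% of all. Both strands were searched. A match is a description of the sequence, and no match says only that the letters are not in that window.

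The 78 libraries held 12292571 to 21459284 counts in peaks. In 76 of the 78 pairs of libraries from the same group the counts differed by no more than reads drawn at random would (the variance between them was 0.786 times that of sampling, at the median), and no label says that they came from separate cultures. The 2 other pairs both held the third DMSO library of HCC1395, and results of that line are given with and without it. The 3 libraries of a group were therefore counted as 1 sample in comparisons across lines, with the line as the unit of replication and no SD within a group. P-values within a line cover little more than counting error. Levels of gene windows are CPM (counts scaled to a library size of all gene windows, after TMM), and levels of single peaks are CPM of all counts in peaks. A higher share of open cells and a wider opening in each cell cannot be told apart in such counts. Windows of epithelial genes were open in the lines to very different degrees, with CDH1 at 47.1 to 311.7 CPM under the combination and 40.2 to 324.3 CPM under DMSO. Under DMSO EPCAM held 4.82 to 42.6 CPM, KRT8 6.64 to 115.3, KRT18 10.85 to 156.2, KRT5 13.7 to 370.8 and KRT14 12.2 to 310.2. Of 6 markers of other cell types with a window, the liver gene ALB was at most 0.626 CPM under the combination and 0.644 CPM under DMSO, too low to test. The other 5 windows were open to some degree in every line, from LYZ, a myeloid gene, at 3.18 to 18.2 CPM under the combination and 2.58 to 16.4 CPM under DMSO, to CDH5, an endothelial gene, at 47.5 to 115.3 CPM under the combination and 41.6 to 119.3 CPM under DMSO. Under DMSO the ranges of EPCAM and the keratins overlapped that of LYZ, and the range of CDH1 overlapped that of CDH5. Whether other cells take part in the values was not tested. The fitted log2 fold uses each line's own scaling and can differ a little from the ratio of printed CPM, by a median of 0.09 in MDA-MB-468 and 0.08 in SUM-159PT under the combination.

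Across the 9 lines, the combination raised the windows of IGFBP2 and GRB10, and no window fell. GRB10 rose by 0.26 ± 0.08 on the log2 scale (SE, 9 lines, adjusted p = 0.0283) and IGFBP2 by 0.25 ± 0.07 (adjusted p = 0.0275), by the edgeR quasi-likelihood test with Benjamini-Hochberg adjustment over 23446 genes. These were 2 of 10, in a comparison in which 28.5% of all genes tested passed, 10.7% of them upward and 17.8% downward. The median log2 fold of the 10 windows was 0.03, and that of all genes was -0.02. When the same sums were scaled to the counts of all peaks, an alternative chosen after seeing the data, the median of all genes moved to -0.10, 32.0% of genes passed, and neither gene did (IGFBP2 0.17, adjusted p = 0.105, and GRB10 0.18, adjusted p = 0.137). IGFBP2 also missed the threshold without SUM-159PT (0.23, adjusted p = 0.0545) or HCC1937 (0.25, adjusted p = 0.0518), and GRB10 without HCC1937 (0.24, adjusted p = 0.0571). Without the third DMSO library of HCC1395 both passed, with 0.29 for each.

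Within single lines the responses were larger and differed between lines. Of the 90 pairs of gene and line, 30 rose and 10 fell with the combination, 40 in all, where 34.2% of all gene and line pairs passed (19.4% rose and 14.8% fell). In 39 of the 40 the 3 combination libraries and the 3 DMSO libraries did not overlap, the exception being IGF1R in MDA-MB-468. The same share was not counted over all called pairs. Libraries of a group differed mostly by counting noise, so the number does not set these genes apart. On the scale of all peaks 57 pairs passed, 24 upward and 33 downward, and 33 passed on both scales with the same sign, where 46.2% of all pairs passed. A test of line by treatment passed for all 10 genes, as it did for 73.7% of all genes.

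**Figure D1:**
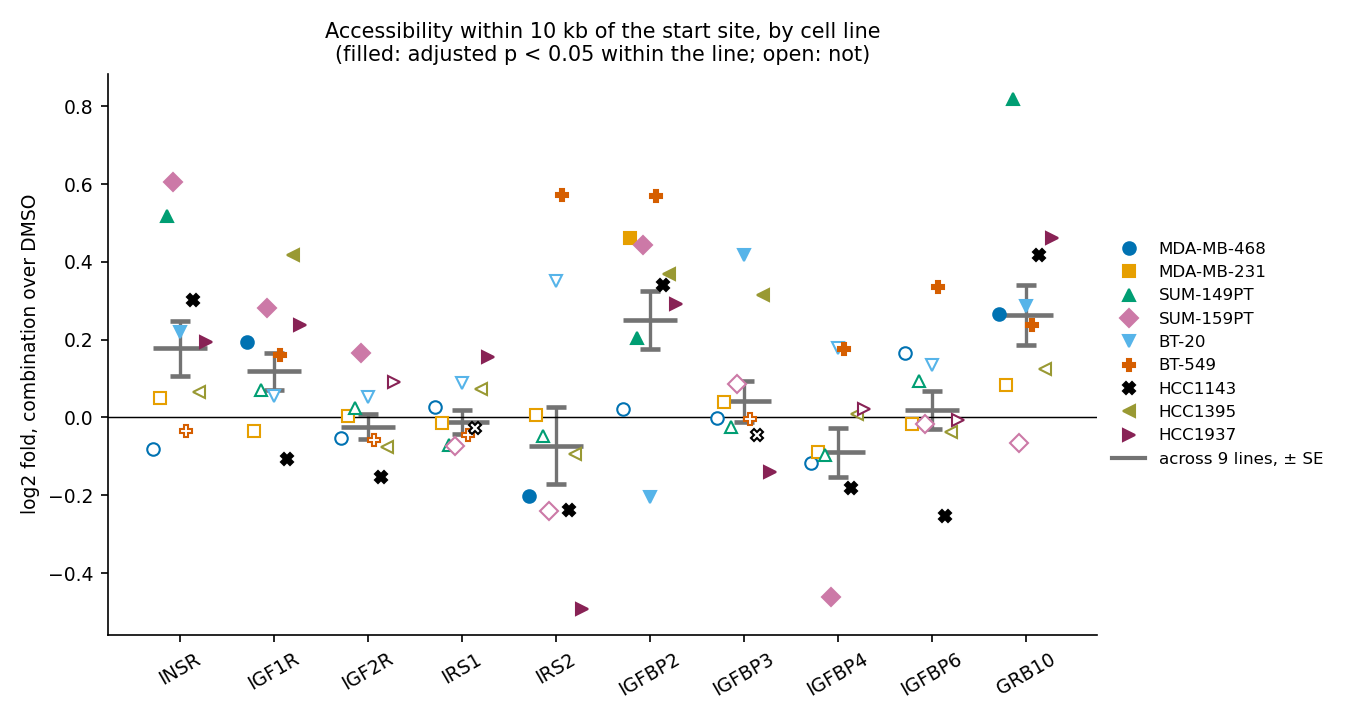
Log2 fold of the combination over DMSO (y axis) of each gene window (x axis) in 9 cell lines, with the estimate across lines and its SE as a grey bar; filled symbols passed an adjusted p of 0.05 within the line. GRB10 in SUM-149PT stood highest, at 0.82, and IRS2 in HCC1937 lowest, at -0.49, while most IRS1 symbols lay near 0.

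The lines differed in how many of the 10 windows moved. HCC1143 had 3 that rose and 5 that fell, the most falls of any line, where 33.4% of its genes passed. HCC1937 had 5 that rose and 2 that fell (29.1% of its genes passed), and BT-549 had 6 that rose and 0 that fell (43.5%). SUM-159PT had 4 that rose and 1 that fell (49.0%), BT-20 3 and 1 (21.4%), and MDA-MB-468 2 and 1 (48.2%). SUM-149PT and HCC1395 each had 3 that rose and 0 that fell (27.5% and 30.2%), and MDA-MB-231 had 1 that rose, IGFBP2, and 0 that fell (25.2%). Scaled to all peaks these counts changed in the lines where that scale shifted all genes: the median log2 fold of all genes was then -0.35 in MDA-MB-468, -0.28 in SUM-159PT, -0.15 in MDA-MB-231 and -0.13 in BT-549. On that scale MDA-MB-468 had 0 that rose and 9 that fell (82.0% of its genes passed), SUM-159PT 2 and 6 (77.6%), MDA-MB-231 1 and 6 (53.1%) and BT-549 3 and 4 (57.9%). In the other 5 lines the median of all genes lay between -0.05 and 0.01. HCC1143, HCC1937, BT-20 and SUM-149PT had the same counts on both scales, and HCC1395 had 4 that rose and 0 that fell.

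INSR, the insulin receptor, rose in 5 of 9 lines and fell in 0. Over the lines its window lay at 29.8 CPM at the lowest, 45.3 at the median and 56.3 at the highest under the combination, against 20.9, 37.4 and 51.0 CPM under DMSO, and the groups overlapped widely. The log2 fold across lines was 0.18 ± 0.07 (SE, 9 lines, adjusted p = 0.0814). It passed without MDA-MB-468 (0.22, adjusted p = 0.0361) and without the third DMSO library of HCC1395 (0.21, adjusted p = 0.0426).

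SUM-159PT showed the largest INSR rise, with 43.5, 48.2 and 51.2 CPM in its 3 combination libraries against 34.7, 33.8 and 30.9 CPM in its DMSO libraries. All 3 combination libraries lay above all 3 DMSO libraries, and the log2 fold was 0.60 ± 0.07 (SE, adjusted p = 7.67e-13). In SUM-149PT the window held 29.8, 29.4 and 30.01 CPM under the combination against 23.2, 19.9 and 19.9 CPM under DMSO, again with no overlap (0.52 ± 0.08, SE). Smaller rises came in HCC1143 (0.30), BT-20 (0.22) and HCC1937 (0.19). In SUM-159PT the 3 window peaks away from the start site summed to 1.33 CPM of all peaks under the combination, against 0.384 CPM under DMSO, while in MDA-MB-468 they summed to 0.970 CPM under the combination, against 2.37 CPM under DMSO. One peak in intron 2, 80579 bp downstream of the start site, rose across the 9 lines (0.98 ± 0.23, SE, adjusted p = 0.0237).

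IGF1R, the receptor for IGF1 and IGF2, rose in 5 lines and fell in 1, HCC1143. The fall in HCC1143 depends on the window, with a log2 fold of 0.01 for peaks within 1 kb and 0.14 for peaks within 50 kb, the second a rise (adjusted p = 0.000125). The rise in MDA-MB-468, where the libraries of both groups overlapped, was a fall on the scale of all peaks (-0.14, adjusted p = 0.00428). The 10 kb window lay at 69.4, 110.5 and 177.3 CPM (lowest, median and highest of 9 lines) under the combination and at 58.8, 111.4 and 170.0 CPM under DMSO, so the 2 ranges nearly coincided. The log2 fold across lines was 0.12 ± 0.05 (SE, adjusted p = 0.0752), and it passed without MDA-MB-231 (0.16, adjusted p = 0.0402) or HCC1143 (0.16, adjusted p = 0.0309).

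The largest IGF1R change of a window was in HCC1395, with 155, 146 and 148 CPM under the combination against 111, 109.6 and 118 CPM under DMSO. The groups did not overlap, and the log2 fold was 0.42 ± 0.04 (SE) with all libraries and 0.45 ± 0.04 without the third DMSO library. That line also held the peak with the largest rise in HCC1395 among the peaks of these genes with a mean of at least 1 on the log2 CPM scale. It lies in intron 1 of IGF1R, 22423 bp downstream of the start site, and held 5.75, 6.74 and 7.11 CPM of all peaks under the combination against 1.28, 1.29 and 1.25 CPM under DMSO (2.37 ± 0.15, SE, adjusted p = 8.48e-14).

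Upstream of IGF1R, a run of intergenic peaks rose. Of the 19 upstream peaks beyond 10 kb that were tested across 9 lines, 12 rose and 0 fell, and all 12 lay at -62196 to -11701 bp from the start site (negative is upstream), at chr15:98585847-98636838 on hg38. That stretch of 50992 bp held 31 peaks, every one assigned to IGF1R, of which 18 were tested and 18 had a log2 fold above 0. The stretch was drawn from the first to the last risen peak, so 12 of the 18 lay above 0 by that choice. The risen peaks had log2 folds of 0.51 to 1.45, in a comparison in which 6.25% of all 410603 peaks tested passed (3.53% rose and 2.72% fell). Most of them were weak, with a mean log2 CPM below 0 in a range of -1.57 to 2.73. The weakest, at -18800 bp, had a median over the lines of 0.254 CPM under the combination and 0.120 CPM under DMSO. The number of peaks called also depends on the minimum count and on the lines kept, as given below.

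The IGF1R peak at -50466 bp (chr15:98596501-98598073) held 1.99, 4.12 and 11.02 CPM of all peaks under the combination (lowest, median and highest of 9 lines), against 1.03, 1.96 and 3.69 CPM under DMSO. It was higher with the combination in 8 of 9 lines and rose in 7 (1.04 ± 0.21 across lines, SE, adjusted p = 0.0138). In SUM-159PT it held 11.7, 11.1 and 10.3 CPM in the combination libraries against 1.81, 1.54 and 2.50 CPM in the DMSO libraries, a log2 fold of 2.54 ± 0.12 (SE). In BT-549 the peak at -56757 bp held 7.08, 6.84 and 6.78 CPM under the combination against 1.84, 1.99 and 2.19 CPM under DMSO (1.80 ± 0.12, SE). These were the peaks with the largest changes among the 10 genes in those lines.

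Summed over the 12 risen IGF1R peaks, which were chosen for their rise and are given as a description, SUM-159PT held 34.6 CPM of all peaks under tazemetostat, 12.8 under ipatasertib and 37.2 under the combination, against 11.5 under DMSO. MDA-MB-231 held 14.7, 8.47 and 14.2 CPM under the same treatments, against 9.07 under DMSO. SUM-149PT held 15.9, 13.8 and 18.4 CPM, against 13.6 under DMSO. MDA-MB-468 held 10.5, 14.4 and 12.9 CPM, against 12.04 under DMSO, the smallest response of the 9 lines to the combination. Tested across the 4 lines, 1 of the 12 peaks rose with tazemetostat (median log2 fold 0.88; 4.37% of all peaks passed), 2 with the combination (1.06; 2.68%) and 0 with ipatasertib (0.09; 0.0%). Inside the gene, a peak over exon 4 of 21 fell (-0.21 ± 0.05, SE, adjusted p = 0.0321) and was lower with the combination in 9 of 9 lines, at 5.73, 15.9 and 26.2 CPM under the combination against 7.26, 18.6 and 30.2 CPM under DMSO. A weaker peak in intron 2 also fell (-0.88 ± 0.24, SE, adjusted p = 0.0412).

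**Figure D2:**
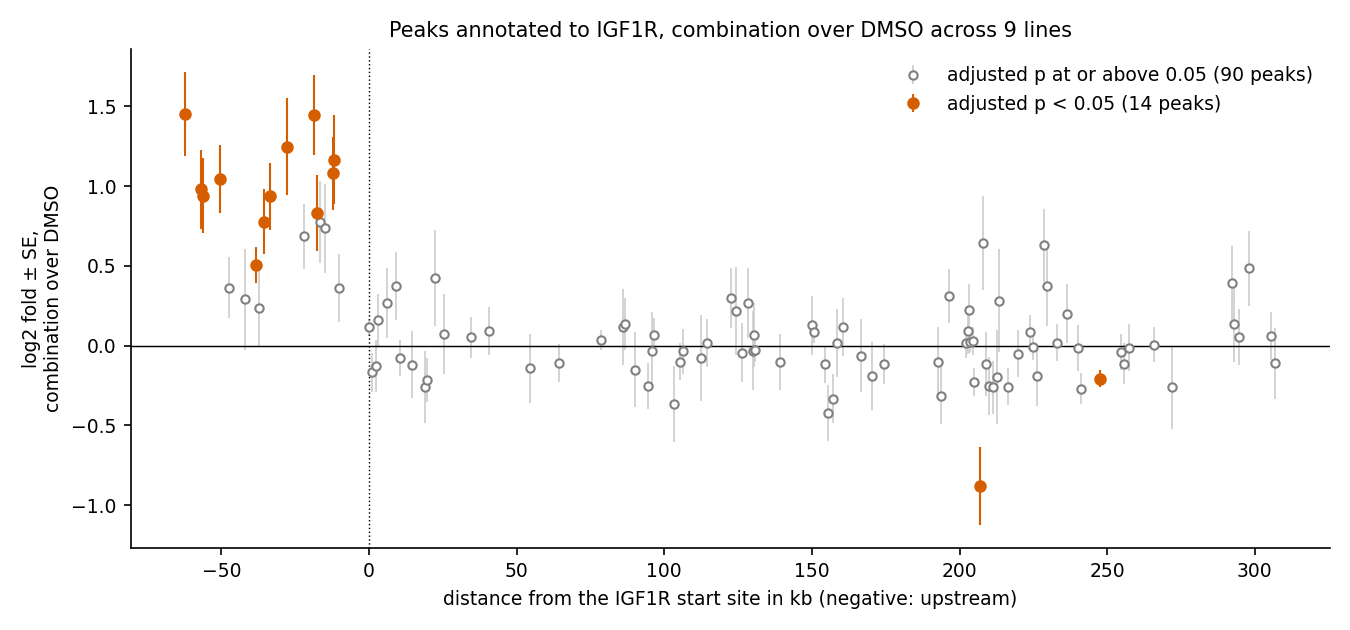
Log2 fold with SE of each peak assigned to IGF1R, combination over DMSO across 9 lines (y axis), by distance from the start site in kb (x axis, negative upstream); orange peaks passed an adjusted p of 0.05 over all peaks. The 12 risen peaks lie left of the start site, and the 2 that fell lie far to the right of it.

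IGF2R, which binds IGF2 and carries it to lysosomes without kinase signalling, had the narrowest range of window levels over the lines under DMSO. Its window held 59.4, 82.2 and 121.4 CPM (lowest, median and highest of 9 lines) under the combination and 55.7, 81.5 and 120.6 CPM under DMSO. The log2 fold across lines was -0.02 ± 0.03 (SE, adjusted p = 0.600); it rose in SUM-159PT (0.17) and fell in HCC1143 (-0.15). The rise in SUM-159PT was -0.10 on the scale of all peaks and did not pass there. The surroundings of the window moved in opposite directions: the 38 peaks more than 10 kb downstream summed lower under the combination in 9 of 9 lines (median log2 ratio -0.29), and the 15 peaks more than 10 kb upstream summed higher in 8 of 9 (median 0.23). Of single peaks across lines, 1 rose at -37067 bp (0.69 ± 0.20, SE, adjusted p = 0.0489) and 1 fell at -2458 bp (-0.84 ± 0.21, SE, adjusted p = 0.0276), the second lower in 9 of 9 lines.

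IRS1, the adaptor that links both receptors to PI3-kinase, had the log2 fold nearest 0. Its window held 39.9, 97.9 and 150.5 CPM (lowest, median and highest of 9 lines) under the combination and 37.5, 103.7 and 144.3 CPM under DMSO. The log2 fold across lines was -0.01 ± 0.03 (SE, adjusted p = 0.808). HCC1937 was the 1 line of 9 in which the window rose, with 89.0, 92.6 and 89.8 CPM under the combination against 78.8, 80.8 and 83.8 CPM under DMSO (0.15 ± 0.05, SE, adjusted p = 0.00688). None of its 13 peaks tested across lines passed by the edgeR test, 1 of them at an unadjusted p under 0.05.

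IRS2, the second adaptor, had the widest spread of window levels between lines and responses in both directions. Its window held 8.27, 14.6 and 88.4 CPM (lowest, median and highest of 9 lines) under the combination and 8.93, 19.6 and 104.4 CPM under DMSO. HCC1143 stood far above every other line in both. In BT-549 the window rose, with 13.0, 13.5 and 12.9 CPM under the combination against 8.37, 9.11 and 9.42 CPM under DMSO (0.57 ± 0.13, SE, adjusted p = 0.000137). It fell in HCC1937, with 13.1, 14.4 and 14.1 CPM under the combination against 18.9, 19.5 and 20.1 CPM under DMSO (-0.49 ± 0.10, SE, adjusted p = 7.55e-05). It also fell in HCC1143 (-0.24) and MDA-MB-468 (-0.20).

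These IRS2 values leave out the peak over the IRS2 start site. That peak, 3518 bp long, spans the IRS2 promoter printed above but was assigned by the authors to the neighbouring LOC105370360, so the IRS2 window consists of 6 other peaks. The start-site peak held more than the 6 together, 1.89 times as much in HCC1143 and 9.43 times as much in BT-549 under DMSO. In HCC1937 it stood at 34.9 CPM of all peaks under the combination and 32.1 CPM under DMSO, while the 6 peaks stood at 4.96 CPM under the combination and 7.05 CPM under DMSO. With the peak counted to IRS2, an alternative chosen after seeing the data, the log2 fold was 0.04 in HCC1937 (adjusted p = 0.559), 0.02 in MDA-MB-468 (adjusted p = 0.551) and 0.01 across 9 lines (adjusted p = 0.855). Counted so, IRS2 rose in BT-20 (0.35 ± 0.05, SE, adjusted p = 9.82e-09) and BT-549 (0.20 ± 0.04, SE, adjusted p = 7.53e-05) and fell in HCC1143 (-0.23 ± 0.03, SE, adjusted p = 1.04e-08). HCC1143 was the 1 line in which IRS2 fell under both assignments.

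**Figure D3:**
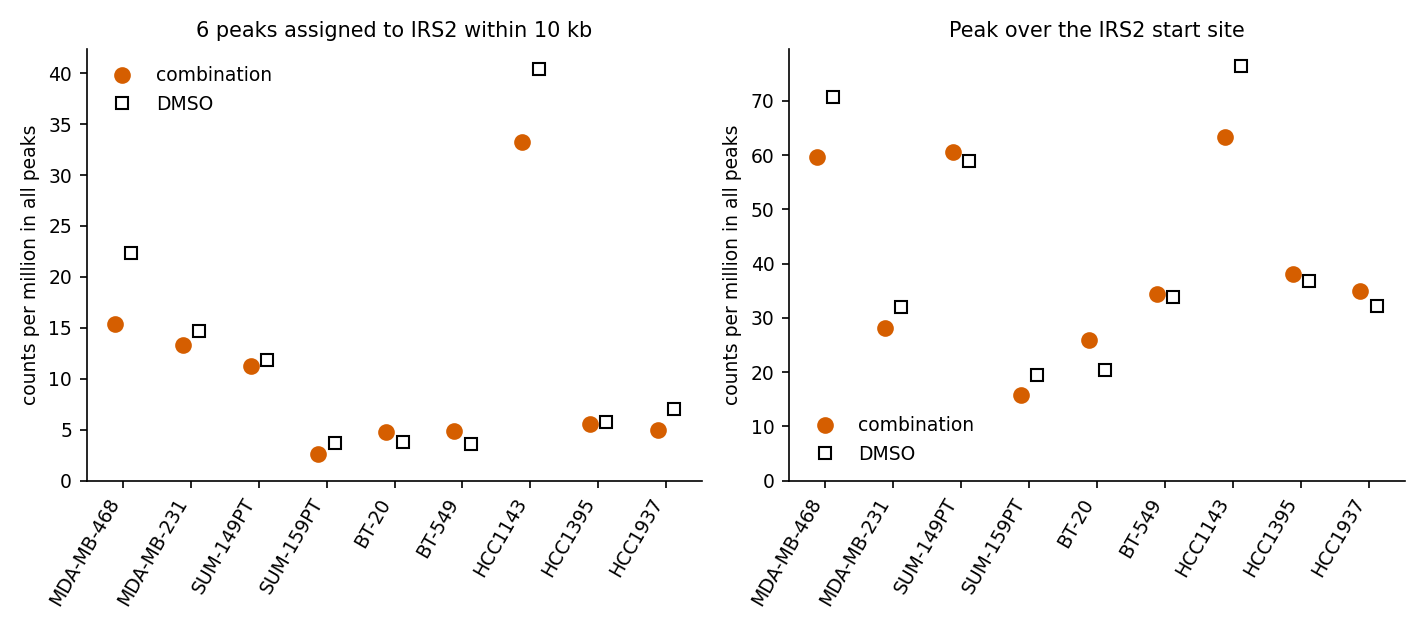
CPM of all peaks (y axes, from 0) in 9 lines under the combination (filled) and DMSO (open), for the 6 peaks assigned to IRS2 within 10 kb on the left and the peak over the IRS2 start site on the right. HCC1143 stood highest in both panels under DMSO, at 40.5 and 76.5 CPM, while HCC1937 stood at 4.96 against 7.05 CPM on the left and 34.9 against 32.1 CPM on the right (combination against DMSO).

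IGFBP2, a secreted binding protein of both IGFs, rose in 7 of 9 lines and fell in 1. Its window held 31.2, 39.0 and 61.8 CPM (lowest, median and highest of 9 lines) under the combination and 21.3, 36.6 and 71.1 CPM under DMSO. The lowest line, BT-549, rose and the highest, BT-20, fell, and the range between lines was narrower under the combination. In BT-549 the libraries held 33.1, 30.9 and 29.8 CPM under the combination against 21.5, 20.6 and 21.6 CPM under DMSO (0.57 ± 0.08, SE, adjusted p = 1.18e-09). Rises of 0.46 in MDA-MB-231, 0.44 in SUM-159PT, 0.37 in HCC1395, 0.34 in HCC1143, 0.29 in HCC1937 and 0.20 in SUM-149PT followed. In HCC1395 the value was 0.53 ± 0.10 (SE) without the third DMSO library.

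In BT-20 the IGFBP2 window held 65.2, 61.3 and 58.5 CPM under the combination against 73.9, 74.3 and 65.3 CPM under DMSO (-0.20 ± 0.06, SE, adjusted p = 0.00536). There the peak at the start site held 9.86 CPM of all peaks under the combination and 8.96 CPM under DMSO, and the 5 other window peaks summed to 11.99 CPM under the combination and 16.37 CPM under DMSO. The start-site peak was higher under the combination in 8 of 9 lines (0.28 ± 0.09 across lines, SE, adjusted p = 0.0697). In MDA-MB-468 the window fold was 0.02, and on the scale of all peaks it was -0.31 (adjusted p = 7.93e-05).

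The other binding proteins did not pass across lines. IGFBP3, the main carrier of IGFs in blood, held 46.0, 125.6 and 174.1 CPM (lowest, median and highest of 9 lines) under the combination and 34.4, 131.2 and 185.5 CPM under DMSO (log2 fold 0.04 ± 0.05, SE, adjusted p = 0.568). It rose in the line with its lowest level, BT-20, with 44.1, 47.7 and 46.4 CPM under the combination against 34.9, 35.5 and 32.8 CPM under DMSO (0.42 ± 0.07, SE, adjusted p = 1.74e-06). It also rose in HCC1395 (0.31 ± 0.03, and 0.30 ± 0.04 without the third DMSO library, SE) and fell in HCC1937 (-0.14 ± 0.04, SE).

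IGFBP4, which holds IGFs until the protease PAPPA cleaves it, fell in SUM-159PT and HCC1143 and rose in BT-549. Its window held 40.0, 73.9 and 132.2 CPM (lowest, median and highest of 9 lines) under the combination and 35.4, 79.5 and 142.1 CPM under DMSO (log2 fold -0.09 ± 0.06, SE, adjusted p = 0.297). SUM-159PT held 95.3, 95.8 and 100.6 CPM in its combination libraries against 137, 143 and 143 CPM in its DMSO libraries, well apart (-0.46 ± 0.04, SE, adjusted p = 4.22e-21). In that line the 11 window peaks away from the start site summed to 15.4 CPM of all peaks under the combination and 30.1 CPM under DMSO. Outside the window the picture differed by line: in MDA-MB-231 the 17 peaks more than 10 kb downstream summed to 51.6 CPM of all peaks under tazemetostat, 35.2 under ipatasertib and 63.0 under the combination, against 26.8 under DMSO. A peak 19755 bp downstream held 2.84, 2.64 and 3.53 CPM under the combination against 1.31, 0.649 and 0.845 CPM under DMSO in MDA-MB-231 (1.70 ± 0.22, SE, adjusted p = 7.59e-11). In BT-20 a peak 28306 bp downstream held 6.17, 5.99 and 4.96 CPM under the combination against 3.06, 1.98 and 2.37 CPM under DMSO (1.24 ± 0.13, SE, adjusted p = 7.02e-14). These were the peaks with the largest changes among the 10 genes in those lines.

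IGFBP6, which prefers IGF2 over IGF1, held 33.2, 71.7 and 90.4 CPM (lowest, median and highest of 9 lines) under the combination and 30.2, 67.6 and 92.4 CPM under DMSO (log2 fold 0.02 ± 0.05, SE, adjusted p = 0.793). In BT-549 it rose, with 49.8, 53.0 and 54.5 CPM under the combination against 41.3, 40.2 and 44.7 CPM under DMSO (0.34 ± 0.06, SE, adjusted p = 1.98e-06). In HCC1143 it fell, with 73.2, 80.4 and 75.1 CPM under the combination against 88.4, 90.6 and 94.8 CPM under DMSO (-0.25 ± 0.05, SE, adjusted p = 6.34e-05).

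GRB10, an adaptor that binds the insulin and IGF1 receptors and dampens their signal, rose in 6 of 9 lines and fell in 0. Its window held 46.9, 77.5 and 125.6 CPM (lowest, median and highest of 9 lines) under the combination and 37.2, 66.4 and 126.6 CPM under DMSO. SUM-149PT, with the lowest level under DMSO, showed the largest window change of all 90 pairs. It held 57.9, 65.1 and 52.6 CPM under tazemetostat, 42.4, 37.4 and 43.2 CPM under ipatasertib and 64.4, 66.4 and 64.8 CPM under the combination, against 37.1, 34.3 and 39.6 CPM under DMSO. The combination libraries lay far above the DMSO libraries (0.82 ± 0.06, SE, adjusted p = 3.62e-20), as did the tazemetostat libraries (0.68 ± 0.06, SE, adjusted p = 8.70e-16), while the ipatasertib fold was 0.13 and did not pass.

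Smaller GRB10 rises came in HCC1937 (0.46 ± 0.04, SE), HCC1143 (0.42 ± 0.06), BT-20 (0.29 ± 0.07), MDA-MB-468 (0.27 ± 0.04) and BT-549 (0.24 ± 0.05). In MDA-MB-468 the value was -0.07 on the scale of all peaks and did not pass there. The peak at the start site held 12.5 CPM of all peaks under the combination in SUM-149PT, against 6.59 CPM under DMSO, and in HCC1937 it held 17.1 CPM under the combination, against 11.01 CPM under DMSO. Across lines a peak at -2733 bp rose and was higher in 9 of 9 lines (0.59 ± 0.15, SE, adjusted p = 0.0327). A stronger peak at -39944 bp rose too and was higher in 7 of 9 lines (0.48 ± 0.13, SE, adjusted p = 0.0352). It held 0.753, 10.9 and 15.4 CPM under the combination against 0.671, 10.2 and 12.5 CPM under DMSO.

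Far upstream of GRB10, MDA-MB-468 and SUM-149PT had the largest increases of the 9 lines. The 82 peaks more than 10 kb upstream summed in MDA-MB-468 to 114.3 CPM of all peaks under tazemetostat, 63.7 under ipatasertib and 132.1 under the combination, against 56.7 under DMSO. In SUM-149PT they summed to 105.4, 88.0 and 114.0 CPM under the same treatments, against 81.0 under DMSO. In MDA-MB-231 they summed to 171.9, 173.8 and 168.6 CPM, against 170.5 under DMSO, a log2 ratio of -0.02 for the combination, and in SUM-159PT to 183.4, 225.3 and 188.3 CPM, against 220.4 under DMSO. A peak at -128182 bp (chr7:50920191-50921644, in an intron by the authors' annotation) was the most changed peak of the 10 genes in MDA-MB-468 and SUM-149PT. In MDA-MB-468 it held 5.91, 6.10 and 5.96 CPM under the combination against 0.825, 1.42 and 0.732 CPM under DMSO (2.74 ± 0.16, SE, adjusted p = 1.72e-44). In SUM-149PT it held 4.78, 4.73 and 4.48 CPM under the combination against 1.39, 1.67 and 1.16 CPM under DMSO (1.73 ± 0.17, SE, adjusted p = 2.47e-18). In HCC1143 and HCC1937 the most changed peaks by the same rule also belonged to GRB10, downstream of the start site at 59435 bp (1.42 ± 0.23, SE) and at 86410 bp (adjusted p = 5.30e-11).

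**Figure D4:**
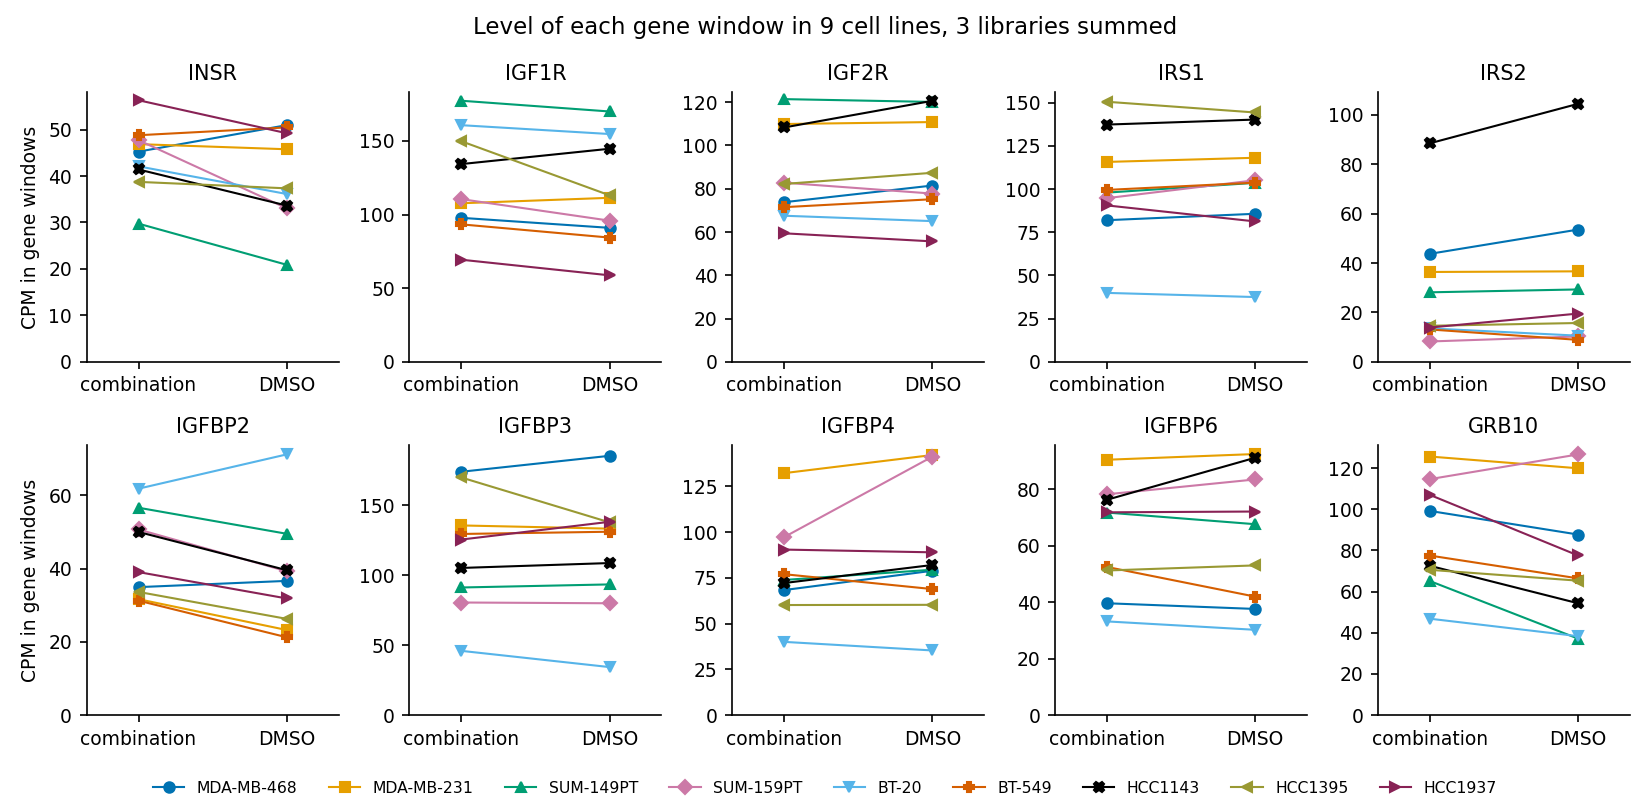
CPM of each gene window (y axes, from 0) in 9 lines under the combination (left) and DMSO (right), the 3 libraries of a group summed. HCC1143 stands alone in the IRS2 window, which leaves out the start-site peak, at 88.4 CPM under the combination and 104.4 CPM under DMSO.

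The single agents were compared in 4 lines, and all of these comparisons share the DMSO libraries, so their values are set side by side without an overlap between them. With tazemetostat, 2 of the 10 windows fell and 0 rose across the 4 lines, where 28.6% of all 23907 genes passed (9.86% rose and 18.7% fell). With its start-site peak counted, IRS2 fell too across the 4 lines (-0.11 ± 0.03, SE, adjusted p = 0.0261). Counted so, it also fell within SUM-159PT (-0.17 ± 0.07, SE, adjusted p = 0.0208). IGFBP4 held 65.9 CPM in MDA-MB-468, 131.5 in MDA-MB-231, 72.2 in SUM-149PT and 97.0 in SUM-159PT under tazemetostat, against 78.9, 142.1, 79.5 and 141.2 CPM in the same lines under DMSO. It was lower in 4 of 4 lines (-0.24 ± 0.06, SE, adjusted p = 0.0206). IRS1 held 78.3, 108.8, 98.8 and 93.8 CPM in those lines under tazemetostat, against 85.7, 118.1, 103.6 and 105.1 CPM under DMSO, lower in 4 of 4 (-0.09 ± 0.03, SE, adjusted p = 0.0251). IRS1 missed the threshold when any of the 4 lines was left out, and IGFBP4 without MDA-MB-468 (adjusted p = 0.0947), MDA-MB-231 (0.0593) or SUM-149PT (0.0854), with trended offsets (0.0985) or with windows of 50 kb (0.501).

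Under the combination in the same 4 lines, IGFBP4 was the 1 window that passed (-0.22 ± 0.07, SE, adjusted p = 0.0387; 19.9% of all genes passed), and it also passed for combination over ipatasertib (-0.20 ± 0.07, SE, adjusted p = 0.0441; 24.1%). Both calls were lost with total counts (adjusted p = 0.0509 against DMSO and 0.0768 against ipatasertib), trended offsets (0.0889 and 0.174), windows of 50 kb (0.926 and 0.827) and without any 1 of the 4 lines (0.0879 to 0.116 against DMSO and 0.0750 to 0.137 against ipatasertib). With ipatasertib alone 0 of 10 passed by edgeR or DESeq2 and 0 had an unadjusted p under 0.05, where 0.0% of all genes passed. The same counts held for combination over tazemetostat, with 0 of 10 and 0.0% of all genes. The ipatasertib log2 folds of INSR were above 0 in 4 of 4 lines, at 0.06 to 0.34. So were those of IGF1R, IGFBP2 and GRB10, and of all 40 pairs of gene and line 27 lay above 0 and 13 below. Neither INSR nor IRS2 passed across the lines. The IRS2 folds were below 0 in 3 of 4 lines, at -0.21 to 0.02, but above 0 in 3 of 4, at -0.05 to 0.02, with the start-site peak counted.

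The tazemetostat values depend on the scale more than the others. Scaled to all peaks, the median log2 fold of all genes was -0.25 under tazemetostat and -0.19 under the combination across the 4 lines, against -0.02 on the scale of gene windows for each. On that scale 49.5% of genes passed with tazemetostat, and 6 of the 10 windows fell, namely IGF1R (-0.21), IGF2R (-0.24), IRS1 (-0.33), IRS2 (-0.30), IGFBP4 (-0.47) and IGFBP6 (-0.19), while 0 rose. Relative to that shift, IGFBP4 was the furthest below. Peaks at promoters as a class had a median log2 fold of -0.30 under tazemetostat across the 4 lines. Of 23395 promoter peaks tested, 333 rose and 6318 fell, so such falls were common. The start-site peaks that passed were IGFBP4 (-0.47 ± 0.10, SE, adjusted p = 0.0214), the peak over the IRS2 start (-0.38 ± 0.09, SE, adjusted p = 0.0240), IGF2R (-0.37 ± 0.10, SE, adjusted p = 0.0439) and IRS1 (-0.36 ± 0.10, SE, adjusted p = 0.0447).

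Within the 4 lines tazemetostat changed 13 of the 40 pairs of gene and line, 10 upward and 3 downward, where 39.3% of all pairs passed (22.0% rose and 17.2% fell). On the scale of all peaks it changed 33, 4 upward and 29 downward, where 66.5% of all pairs passed, and 7 passed on both scales with the same sign. Ipatasertib changed 2 of the 40 (3.24% of all pairs passed): INSR in SUM-149PT, with 26.9, 28.6 and 24.2 CPM under ipatasertib against 23.2, 19.9 and 19.9 CPM under DMSO (0.34 ± 0.09, SE, adjusted p = 0.0161), and IGF1R in MDA-MB-468 (0.14 ± 0.05, SE, adjusted p = 0.0318). By DESeq2 0 of the 40 passed, and 7 had an unadjusted p under 0.05 by edgeR.

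Adding ipatasertib to tazemetostat changed 6 of 40 pairs, where 4.74% of all pairs passed. INSR in SUM-159PT was one, with 43.5, 48.2 and 51.2 CPM under the combination against 38.7, 40.4 and 36.2 CPM under tazemetostat (0.31 ± 0.08, SE, adjusted p = 0.00574). In MDA-MB-468, GRB10 (0.17) and IGF1R (0.14) rose and IRS2 (-0.26) fell over tazemetostat, and in SUM-149PT IGF1R (0.12) rose and IGFBP3 (-0.20) fell. On the scale of all peaks 10 pairs rose and 0 fell, where 14.5% of all pairs passed, and 4 passed on both scales with the same sign. There neither fall passed (IRS2 -0.15, adjusted p = 0.0592, and IGFBP3 -0.11, adjusted p = 0.157), and with the start-site peak counted IRS2 stood at 0.06 (adjusted p = 0.192). Adding tazemetostat to ipatasertib changed 11 of 40, where 35.2% passed, among them GRB10 in SUM-149PT (0.69) and IGFBP2 in MDA-MB-231 (0.42), SUM-159PT (0.44) and SUM-149PT (0.16), and, as falls, IGFBP4 in SUM-159PT (-0.38) and INSR in MDA-MB-468 (-0.16). On the scale of all peaks 26 pairs passed, 2 upward and 24 downward, where 64.5% of all pairs passed, and 4 passed on both scales with the same sign. The 2 that rose there were GRB10 in SUM-149PT (0.60) and IGFBP2 in MDA-MB-231 (0.26). A departure from the sum of the 2 single effects on the log2 scale passed for 0 of 40 pairs by edgeR or DESeq2, with 0 at an unadjusted p under 0.05, where 0.0388% of all pairs passed.

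**Figure D5:**
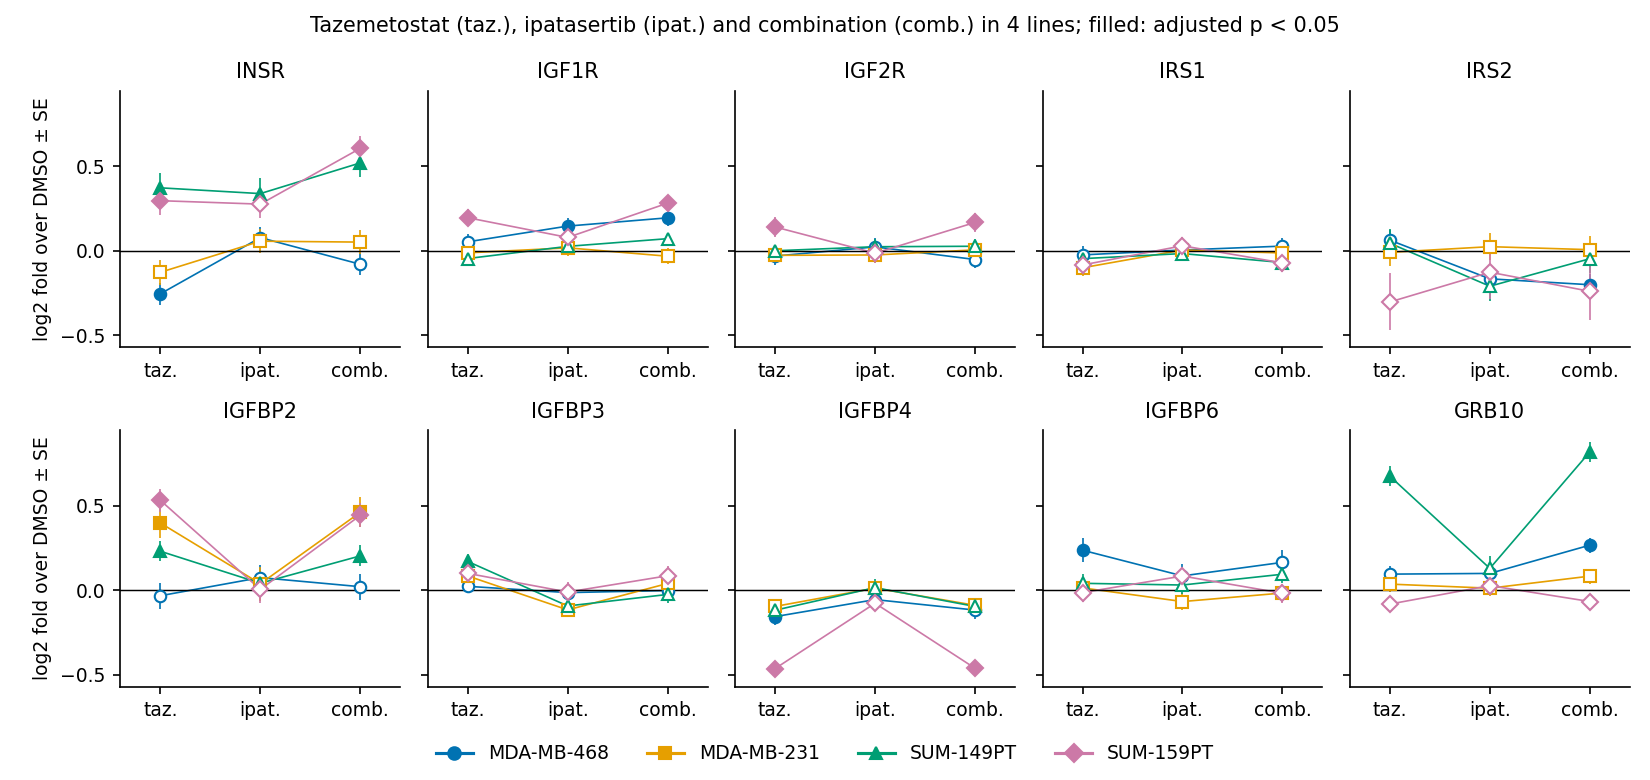
Log2 fold over DMSO with SE (y axes, shared) of each gene window under tazemetostat, ipatasertib and the combination (x axes) in 4 lines; filled symbols passed an adjusted p of 0.05 within the line. IGFBP4 in SUM-159PT stood at -0.46 with both tazemetostat and the combination, and the ipatasertib symbols lay between -0.21 and 0.34.

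Over single peaks, 375 of the 654 peaks of the 10 genes had enough counts to be tested across 9 lines, of which 16 rose, 3 fell and 76 had an unadjusted p under 0.05. Over all peaks 6.25% passed, 3.53% upward and 2.72% downward, so the share of these peaks was close to that of all peaks. The 19 became 10 with a minimum count of 30 and 6 without BT-549, 9 without HCC1143, 10 without SUM-159PT, 11 without HCC1937 and 12 without MDA-MB-231. Of the 16 that rose, 12 belonged to IGF1R and lay upstream of it, 2 to GRB10, 1 to INSR and 1 to IGF2R. No peak of IRS1, IRS2 or the 4 binding proteins passed. Within single lines 616 of 1954 pairs of peak and line passed, 31.5%, beside 31.4% of all such pairs. GRB10 had 123 that rose and 49 that fell of 502, and IGF1R 105 that rose and 92 that fell of 595, while IRS1 had 5 that rose and 15 that fell of 82.

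Without any drug the lines differed more from each other than the treatments did within a line. Under DMSO the highest line held 11.7 times the lowest for IRS2, 5.39 times for IGFBP3, 4.02 times for IGFBP4, 3.84 times for IRS1, 3.40 times for GRB10 and 3.35 times for IGFBP2. For IGFBP6 the range was 3.06 times, for IGF1R 2.89 times, for INSR 2.44 times and for IGF2R 2.17 times. The IRS2 window leaves out the start-site peak. Under DMSO that peak held 76.5 CPM of all peaks in HCC1143, 70.8 in MDA-MB-468 and 19.5 in SUM-159PT, the lowest line. Copy number differs between cancer cell lines and cannot be told apart from accessibility in these counts, so each window was also divided by the peaks 100 kb to 2 Mb around it. The ratio of highest to lowest was then 7.02 for IRS2, 1.66 for IGF1R and 7.88 for GRB10, and the highest line stayed the same for 5 of the 10 genes. HCC1143 remained highest for IRS2, SUM-159PT for GRB10, MDA-MB-468 for INSR, BT-20 for IGFBP2 and MDA-MB-231 for IGFBP6.

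Other genes of the pathway were read from 6 lists, whose counts are descriptions, beside 10.7% of all genes that rose and 17.8% that fell across the 9 lines. Of 6 ligands and other receptors tested, 2 rose and 0 fell across the 9 lines, and the growth factor gene IGF2 was among them, with 16.1, 19.5 and 43.8 CPM (lowest, median and highest of 9 lines) under the combination against 7.97, 12.7 and 35.7 CPM under DMSO. It was higher in 9 of 9 lines (0.83 ± 0.17, SE, adjusted p = 0.00682). Across the 4 lines with single agents, the IGF2 fold was 1.06 with tazemetostat (adjusted p = 0.0222), 0.01 with ipatasertib and 1.10 with the combination. INSRR, a receptor related to INSR, rose by 0.26 ± 0.08 (SE). Of 10 other binding proteins and proteases 1 rose, IGFBP5 (0.38 ± 0.12, SE), and of 17 other adaptors 3 rose and 2 fell. The risen adaptors were SHC2 (0.38 ± 0.07), IRS4 (0.90 ± 0.21) and SHC4 (0.17 ± 0.05, SE each). SHC1 fell (-0.10 ± 0.02, SE) and was lower in 9 of 9 lines. The IRS4 window was weak, at 0.9, 5.42 and 12.9 CPM (lowest, median and highest of 9 lines) under the combination. Under DMSO it held 0.980, 2.02 and 8.93 CPM.

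Of the 21 tested genes of the PI3-kinase, AKT and mTOR chain, 0 rose and 8 fell (median log2 fold -0.07), beside 10.7% and 17.8% of all genes. With trended offsets 2 rose and 4 fell, and the share of all genes under that scaling is not given here. On the scale of all peaks 0 rose and 12 fell, where 32.0% of all genes passed and their median log2 fold was -0.10. RPTOR, the scaffold of mTORC1, fell by 0.27 on the log2 scale (SE 0.05), RPS6KB2 by 0.23 (SE 0.04), PIK3R2 by 0.13 (SE 0.03) and EIF4EBP1 by 0.11 (SE 0.03), each lower in 9 of 9 lines. Of 20 inhibitors of the pathway 1 rose, ENPP1 (0.31), and 3 fell, CBL (-0.10), TSC2 (-0.30) and SOCS1 (-0.09). Of 16 FOXO factors and targets tested, 5 rose and 0 fell, again beside 10.7% and 17.8% of all genes, with PCK1 (0.67 ± 0.14), PDK4 (0.38 ± 0.08), KLF15 (0.17 ± 0.04) and FOXO4 (0.12 ± 0.04, SE each), the first 2 higher in 9 of 9 lines. On the scale of all peaks 2 of the 16 rose and 1 fell. Across the 4 lines with single agents, PCK1 stood at 1.03 with tazemetostat (adjusted p = 0.00273), -0.18 with ipatasertib and 1.03 with the combination. PDK4 stood at 0.17, 0.17 and 0.40 under the same treatments, and neither single agent passed for it. With tazemetostat across 4 lines the PI3-kinase list had 0 that rose and 10 that fell, beside 9.86% and 18.7% of all genes. There 6 fell with trended offsets and 18 on the scale of all peaks, where 49.5% of all genes passed. With ipatasertib none of the 6 lists had a gene that passed, where 0.0% of all genes passed.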

How the data were processed

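Libraries were made from nuclei of treated cell lines by Omni-ATAC-seq, per the labels' protocols. The authors called peaks with MACS2 on hg38 and counted reads in them with featureCounts, per the submitters' processing notes, and deposited whole-number read counts for each peak and library, with each peak's nearest gene and distance to its start site. Versions, the aligner, removal of duplicates and any shift for the transposase were not given in sources used here. The labels hold 84 samples, of which 6, of HCC1806, were not analysed here.

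Counts of peaks within 10 kb of a start site were summed per gene. The 3 libraries of a group were summed, and treatments were compared across lines with edgeR's quasi-likelihood test (edgeR 4.0.16, limma 3.58.1, R 4.3.3), with the cell line as block, TMM scaling, a minimum count of 10 (edgeR's filterByExpr) and Benjamini-Hochberg adjustment over all genes or peaks tested, called at an adjusted p under 0.05. Every adjusted p in the text comes from this test unless another tool is named. Fits within a line used its single libraries. DESeq2 1.42.0 was an alternative, and tables were joined in Python 3.11.15. Scripts were tested on simulated data. Other alternatives were size factors, total counts, trended offsets, a minimum count of 30, windows of 1 and 50 kb, leaving out lines or replicates, a replicate block and, chosen after seeing the data, scaling to all peaks and IRS2 with its start-site peak.

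The 10 genes and the pathway lists were chosen with earlier results of these data known. Named were all 10 genes, up to 4 genes with the smallest adjusted p of each list, the peak nearest each start site, the strongest changes across lines and the largest change in each line, both among peaks whose log2 CPM averaged 1 or more. The other IGF1R, GRB10, IGF2R and INSR peaks that passed, and the sums by part of a locus, were chosen after their values were seen.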

Additional observations from a re-analysis of the deposited data

Results flagged for a closer look

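The level of IRS2 under DMSO in HCC1143, 104.4 CPM of gene windows, stood apart from the other 8 lines, with a gap to the next line of 0.533 of the whole range. That window leaves out the start-site peak, which held 76.5 CPM of all peaks in HCC1143 and 70.8 in MDA-MB-468 under DMSO. The gap with that peak counted was not examined. The log2 fold of IGFBP4 with tazemetostat in SUM-159PT, -0.463, stood apart from the other 3 lines in the same way, with a gap of 0.836 of the range. Of 40 groups of values examined for such a gap 2 were found, and chance gives about 1 in 20.

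The response to the combination differed between the 9 lines for every one of the 10 genes, by edgeR's quasi-likelihood F test of line by treatment over single libraries, which covers counting error. The adjusted p was 1.71e-23 for GRB10, 8.09e-21 for IGFBP4, 3.07e-16 for IGFBP3, 3.58e-13 for IGFBP2, 9.73e-13 for IGF1R and 1.29e-12 for INSR. It was 8.17e-10 for IRS2, 1.61e-08 for IGFBP6, 0.000621 for IRS1 and 0.00244 for IGF2R. The log2 folds behind these tests ran over the lines between -0.07 and 0.82 for GRB10, and between -0.15 and 0.17 for IGF2R.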

How the results depend on the processing

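Across 9 lines, where 2 genes passed with the combination, 4 passed with windows of 1 kb, 0 scaled to all peaks, 5 with each library as its own sample and a replicate block, and 0 to 3 with 1 line left out. With tazemetostat across 4 lines, where 2 passed, 1 passed with trended offsets, 1 kb or 50 kb, 6 scaled to all peaks, and 0 to 1 with a line left out. IRS2 passed there as a fall when its start-site peak was counted. For combination over ipatasertib, where 1 passed, 2 passed with size factors, DESeq2 or a minimum count of 30, 0 with total counts or 50 kb, 4 scaled to all peaks, 3 with the replicate block, and 0 to 1 with a line left out. Within lines, 40 pairs became 23 with 1 kb and 31 to 33 without a replicate, and the 15 of single agents became 26 with 50 kb, 37 scaled to all peaks and 12 without a replicate. Of the 19 peaks called across lines, the number was 10 with a minimum count of 30, and 6 (without BT-549), 9 (HCC1143), 10 (SUM-159PT), 11 (HCC1937) and 12 (MDA-MB-231) to 18 with a line left out. The F test called 9 to 10 genes without a replicate. The line highest under DMSO stayed the same for 5 genes over the flank and for 3 with 1 kb. Same-numbered libraries did not deviate together (27 correlations of -0.149 to 0.0589). Libraries of a group differed mostly by counting noise, so these correlations cannot show whether the numbers pair the samples. Under the replicate block the within-line calls numbered 40 and 15. Alternatives for pairs of peak and line were not run. In the other direction from the reported value, across 9 lines, were IGF2R with trended offsets (0.029), 1 kb (0.031), without the third DMSO library of HCC1395 (0.0015) and without a line (-0.037 to 0.012), and IRS1 with total counts (0.0039), trended offsets (0.044), 1 kb (0.052), without that library (0.0095), with the replicate block (0.0035) and without a line (-0.028 to 0.021). The same held for IRS2 with its start-site peak (0.014), IGFBP3 with 50 kb (-0.0012) and scaled to all peaks (-0.038), IGFBP4 with 50 kb (0.055) and IGFBP6 scaled to all peaks (-0.063). With tazemetostat across 4 lines, scaling to all peaks turned INSR (-0.205), IGF1R (-0.214), IGFBP3 (-0.166), IGFBP6 (-0.192) and GRB10 (-0.096), DESeq2 turned IGF1R (-0.00040), and total counts (0.013), trended offsets (0.079) and 50 kb (0.073) turned IGF2R. Leaving out a line gave INSR -0.052 to 0.155, IGF1R -0.036 to 0.066, IGF2R -0.053 to 0.020 and IGFBP6 -0.00042 to 0.068. Within lines, scaling to all peaks turned IGF1R (-0.141) and GRB10 (-0.067) in MDA-MB-468 and IGF2R (-0.098) in SUM-159PT with the combination, and IGFBP6 in MDA-MB-468 (-0.209) and INSR (-0.028), IGF1R (-0.129) and IGF2R (-0.184) in SUM-159PT with tazemetostat. Windows of 1 kb turned IGF2R in SUM-159PT with tazemetostat (-0.017), IGFBP2 in BT-20 (0.131) and IGF1R in HCC1143 (0.012), where 50 kb gave 0.140. IRS2 with its start-site peak turned in MDA-MB-468 (0.024) and HCC1937 (0.037). Of single results under an alternative, 1108 kept direction and side of the threshold, 178 lost the call, 18 gained it and 52 turned. The cause was not tested. Counting depth limits the weakest windows, above all that of IRS2.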

Other observations

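Over the 26 groups of line and treatment, the gene of another chromosome whose log2 CPM of gene windows followed each of the 10 genes most closely is given here as a description, out of 16830 to 17688 genes compared, with groups of a line sharing their cells. Pearson's r was 0.925 for INSR with TMEM74B, 0.904 for IGF1R with LOC101927055, 0.942 for IGF2R with CAMKK1, 0.943 for IRS1 with FAM53B and 0.919 for IRS2 with RREB1. It was 0.864 for IGFBP2 with BMF, 0.935 for IGFBP3 with INGX, 0.909 for IGFBP4 with E2F7, 0.964 for IGFBP6 with RMI1 and 0.943 for GRB10 with SSTR2.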
